A study of Homo sapiens with 6 samples.

Results

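Mitochondrial carriers of the SLC25 family were followed after erianin in cells of SU-DHL-8, a line grown from a human lymphoma of the diffuse large B-cell type. The members were all gene symbols made of SLC25A and a number with at least 20 counts summed over the libraries. This rule took 41 of 48 such symbols, among 18157 symbols with at least 1 count, without using any difference between groups. In 3 libraries the cells had received 100 nM erianin for 24 h, and in 3 control libraries DMSO, labelled as of equal concentration, for 24 h. The cells of both groups are labelled wild type, and no other agent or allele is named. Erianin, a bibenzyl found in orchids of the genus Dendrobium, is known to bind tubulin. RNA sequencing of total RNA gave read counts per gene, and the comparison asks which carriers changed in transcript level with the compound. The line is a single tumour line, and the labels do not say how separate the 3 cultures of a group were, and the p-values cover no more than the variation among these libraries.

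SLC25 proteins are nuclear-encoded carriers, most of them in the inner mitochondrial membrane, built of a repeated fold of membrane helices. Each moves a narrow set of solutes, such as ADP and ATP, phosphate, citrate, amino acids, cofactors or iron, and so links metabolism in the matrix with that in the cytosol. In lymphoma cells, as in other dividing cells, they serve ATP export, lipid synthesis from citrate, one-carbon metabolism, nucleotide supply and iron-sulfur cluster assembly.

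Total counts were 32844464 to 35307027 in the erianin libraries and 30956443 to 35588728 in the DMSO libraries, so that 3 counts, used here as the floor, equal a level of 0.0843 to 0.0969 CPM (counts scaled to library size). All 7 B-cell markers checked were above 1 CPM in at least 1 library, with a summed level of 2350 to 2630 CPM with erianin and 2780 to 3820 CPM with DMSO. The 7 T-cell markers summed to at most 0.247 CPM in any library, the 4 epithelial markers to at most 0.0858 CPM, and the 5 myeloid markers to 9.42 to 10.6 CPM with erianin and 4.3 to 7.27 CPM with DMSO, mostly from LYZ. CD14 was at 1.56 to 1.6 CPM with erianin and 0 to 0.26 CPM with DMSO, and the part of other cells in the results was not tested. In bulk RNA, a change in the cells that make up a culture and a change of RNA per cell cannot be told apart. The first DMSO library lay away from the rest. Its biological coefficient of variation against DMSO replicates 2 and 3 was 0.283 and 0.288, compared with 0.0336 to 0.0812 for pairs of erianin libraries and 0.038 for the remaining DMSO pair. Of the 41 carriers, 30 were lower in DMSO replicate 1 than in the mean of the other DMSO libraries, 15 of them by more than 1.5-fold. Summed carrier counts made up 0.339%, 0.343% and 0.351% of the counts in erianin replicates 1, 2 and 3, and 0.302%, 0.382% and 0.392% in DMSO replicates 1, 2 and 3. Values without DMSO replicate 1 are therefore given too, and its part in the calls that appear without it was not tested.

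Erianin changed 11 of the 41 carriers, 7 upwards and 4 downwards, and all 41 passed the filter on low counts. SLC25A41, SLC25A43, SLC25A33, SLC25A30, SLC25A32, SLC25A17 and SLC25A13 rose, and SLC25A40, SLC25A28, SLC25A6 and SLC25A38 fell. Calls are adjusted p-values under 0.05 from the quasi-likelihood F test of edgeR, with Benjamini-Hochberg adjustment over all 11550 genes tested. The share of all genes called was 24.2% (11.8% higher and 12.3% lower), so the carriers' 26.8% was close to the background. The median log2 fold change (erianin minus DMSO) was 0.01 over the carriers and -0.003 over all genes tested. The groups did not overlap in 16 of the 41 carriers (39%), among them the 11 called ones, and in 46.8% of all genes tested. Without DMSO replicate 1, 14 carriers were higher and 16 lower, and the 11 named ones kept their calls and directions; the share of all genes called was then 55.3% (27.8% higher and 27.4% lower). With total counts in place of TMM scaling, which moved the median of all genes by about 0.11, 10 carriers were higher and 2 lower, against 15.9% higher and 7.95% lower of all genes. With offsets for the GC content and length of each gene, 6 carriers were higher and 7 lower, against 14.9% higher and 21.8% lower of all genes (36.7% called).

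**Figure D1:**
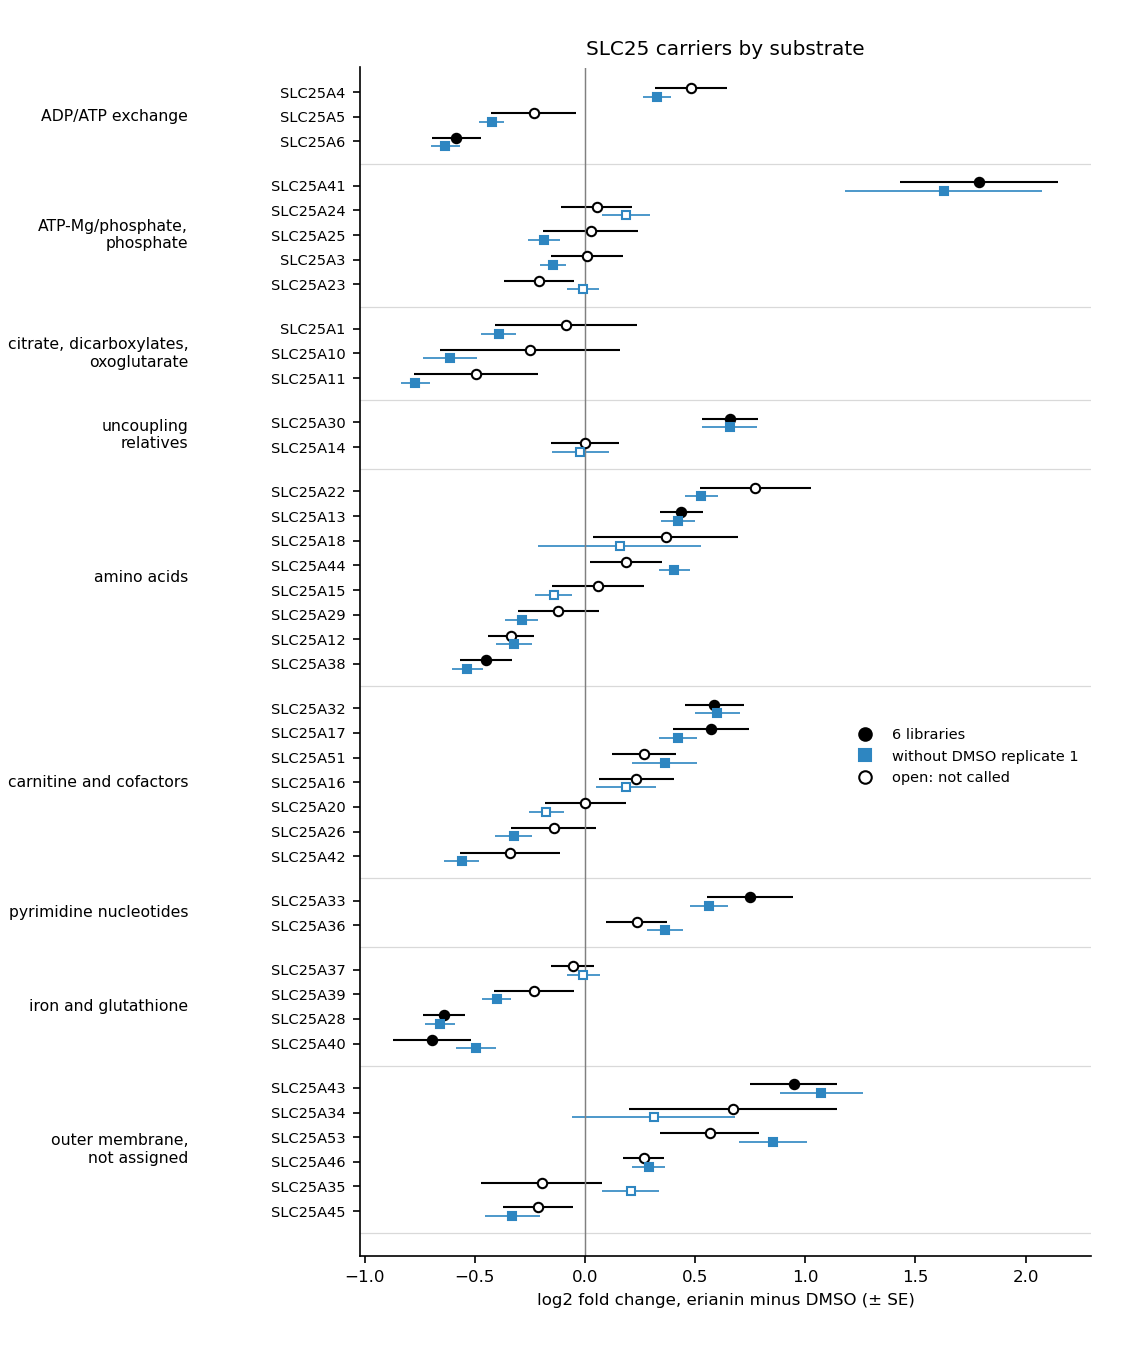
Log2 fold change (erianin minus DMSO, x axis) with its standard error for 40 of the 41 carriers, grouped by substrate. Black circles are the fit of all 6 libraries and blue squares the fit without DMSO replicate 1, filled where the adjusted p was under 0.05. The 11 filled circles are the 7 carriers that rose and the 4 that fell, and 30 blue squares are filled.

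Calls became fewer among the carriers and among all genes when 1 library other than DMSO replicate 1 was left out. Of the 11 carriers, 1 was called without erianin replicate 1 (SLC25A28) and 2 without erianin replicate 2 (SLC25A28 and SLC25A41), where 6.65% and 6.36% of all genes were called. Without erianin replicate 3, 5 were called (10.3% of all genes), and without DMSO replicate 2 or 3, 7 each (15.2% and 16.9% of all genes). The direction of all 11 was the same in each of these fits. SLC25A28 was called whichever library was left out (adjusted p up to 0.0487). By limma-trend on log2(TPM + 1), 3 of the 11 were called (SLC25A30, SLC25A41 and SLC25A43) and SLC25A28 was not, where 14.5% of all genes were called. The TPM columns do not share a scale, and that test takes them as they stand.

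**Figure D2:**
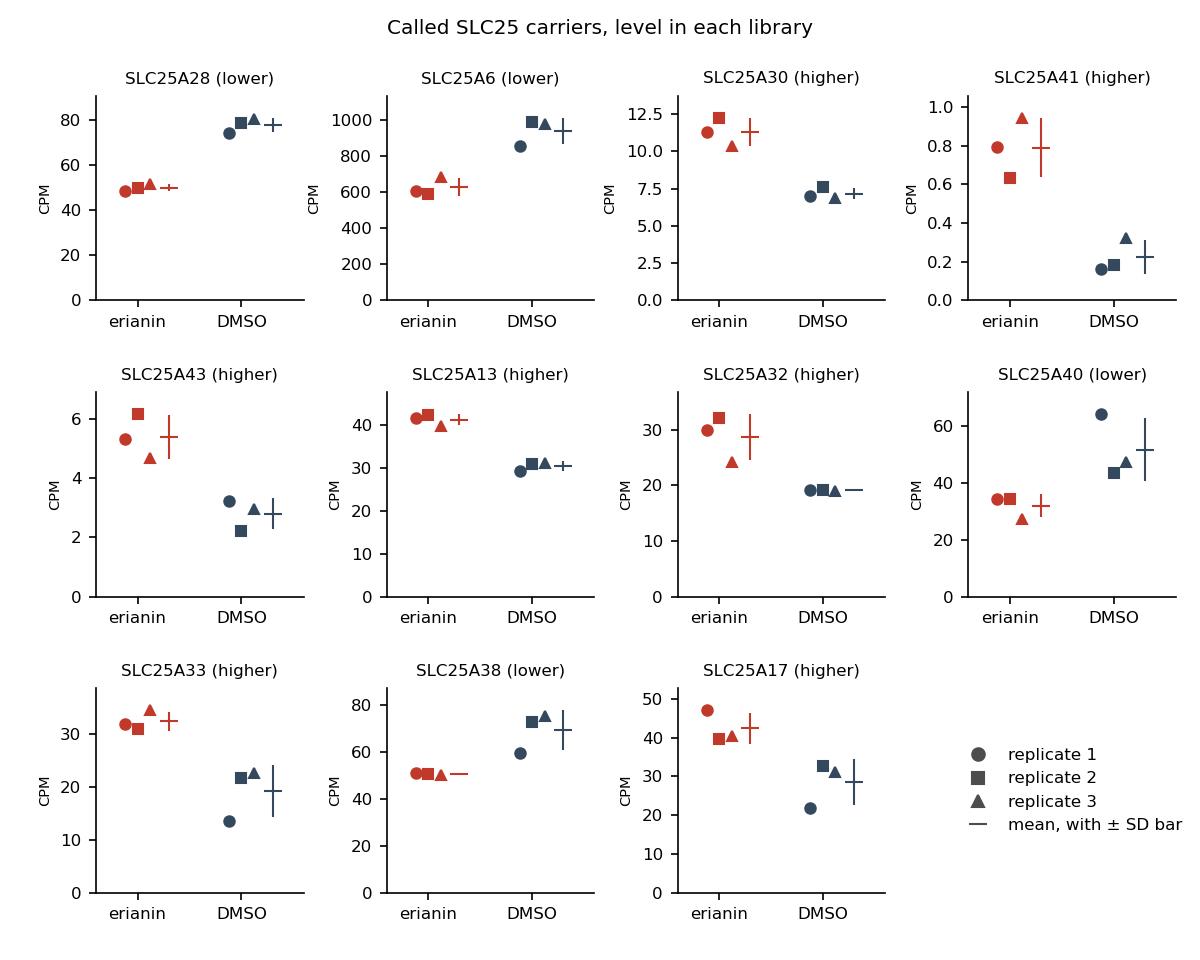
Level in CPM (y axis, from 0) of the 11 called carriers in each library, erianin on the left and DMSO on the right, with the replicate number as the marker and the mean ± SD (n = 3 each) beside the points. The groups are apart in every panel, and in SLC25A40, SLC25A33, SLC25A38 and SLC25A17 DMSO replicate 1 lies away from the other DMSO points.

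Of the iron carriers, 1 was called. SLC25A28, which encodes mitoferrin 2, one of a pair of carriers that bring iron to the matrix for iron-sulfur clusters and heme (chromosome 10, 99610522 to 99620609, minus strand), fell. Coordinates are those of GENCODE 29 on GRCh38. It had 48.4, 50.1 and 51.8 CPM in erianin replicates 1, 2 and 3, against 74.6, 78.95 and 80.5 CPM in DMSO replicates 1, 2 and 3 (log2 fold change -0.64 ± 0.10, adjusted p = 0.00527). Each erianin library lay below each DMSO library, and DMSO replicate 1 was close to its group. SLC25A37, which encodes mitoferrin 1, had 43.2, 42.6 and 40.5 CPM in the erianin libraries, against 45.9, 42.5 and 42.9 CPM in the DMSO libraries, and was not called (-0.06 ± 0.10, adjusted p = 0.715; -0.01 ± 0.08 without DMSO replicate 1). Its groups overlapped. Within a library, the ratio of SLC25A28 to SLC25A37 in TPM, a transcript abundance scaled to length, was 6.22, 6.54 and 7.11 with erianin, against 9.03, 10.3 and 10.4 with DMSO. The size of this ratio depends on the gene model. Relative to SLC25A5, the length behind the TPM was 1.28 for SLC25A28 and 7.09 for SLC25A37, and by the longest transcript 1.14 and 3.79. The difference between the changes of these paralogs was not tested. This ratio and the others given here were chosen after the values were seen and carry no test.

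The upstream bases of SLC25A28 and SLC25A6 are shown since these carriers had the lowest adjusted p among those that fell. They are the 250 bases before the start of the gene in RefSeq (GRCh38.p14), in the direction of transcription. The RefSeq start of SLC25A6 and its whole window lie inside the longer GENCODE gene, and the SLC25A28 window lies partly inside its own. The CCAAT box (CCAAT) and the GC box (GGGCGG) are in capitals on either strand.
SLC25A28 promoter, chr10:99620440-99620689, minus strand: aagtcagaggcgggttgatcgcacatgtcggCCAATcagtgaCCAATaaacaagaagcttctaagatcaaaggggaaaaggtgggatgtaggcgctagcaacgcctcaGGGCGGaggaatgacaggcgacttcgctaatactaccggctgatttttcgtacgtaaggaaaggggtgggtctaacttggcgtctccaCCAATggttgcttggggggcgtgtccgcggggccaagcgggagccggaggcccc
SLC25A6 promoter, chrX:1392114-1392363, minus strand: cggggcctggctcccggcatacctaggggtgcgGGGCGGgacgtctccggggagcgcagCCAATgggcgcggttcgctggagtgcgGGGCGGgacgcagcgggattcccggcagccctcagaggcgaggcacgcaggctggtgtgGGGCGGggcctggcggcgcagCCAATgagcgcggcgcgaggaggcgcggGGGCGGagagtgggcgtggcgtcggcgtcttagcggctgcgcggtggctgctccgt
The CCAAT box was found 3 times in the SLC25A28 window and 2 times in the SLC25A6 window, and the GC box 1 and 4 times. Of 34961 such windows in the RefSeq table, 32% held a CCAAT box and 42.7% a GC box, so both are common letters. The SLC25A28 window had 56.8% G and C, and the SLC25A6 window 76.8%. The start sites used in these cells were not measured.

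The glutathione carriers stand in the same group, and SLC25A40 fell. SLC25A40 and its paralog SLC25A39 import glutathione, the main thiol antioxidant, into mitochondria. SLC25A40 had 34.4, 34.2 and 27.2 CPM in the erianin libraries, against 64.2, 43.6 and 47.2 CPM in the DMSO libraries (-0.69 ± 0.18, adjusted p = 0.0292). DMSO replicate 1 was the highest library, and without it the change was -0.49 ± 0.09, adjusted p = 5.58e-05. It lost its call without any 1 erianin library (adjusted p up to 0.109) and with total counts alone. SLC25A39 had 169, 169.5 and 198 CPM with erianin, against 154, 236 and 240.4 CPM with DMSO, and was not called (-0.23 ± 0.18, adjusted p = 0.395). For SLC25A39 DMSO replicate 1 was below every erianin library, and without it SLC25A39 fell (-0.40 ± 0.07, adjusted p = 1.73e-05). All 4 carriers of iron and glutathione had negative log2 fold changes, with a median of -0.44. Over all 11550 genes tested, 5735 had positive ones. SLC25A37 turned positive with upper-quartile scaling or total counts, and both SLC25A37 and SLC25A39 by limma-trend on log2(TPM + 1). Of the 4 carriers 2 were called, both lower, against 24.2% called and 12.3% lower of all genes.

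Among the ADP/ATP carriers, which exchange matrix ATP for cytosolic ADP, SLC25A6 fell and the other isoforms were not called. SLC25A6 encodes ANT3, lies in the pseudoautosomal region (chromosome X, 1386152 to 1392724, minus strand), and had 607, 591 and 684 CPM in the erianin libraries, against 857, 987 and 975 CPM in the DMSO libraries (-0.58 ± 0.11, adjusted p = 0.0113). Its erianin libraries all lay below the DMSO libraries; the call was lost without erianin replicate 1 or 2 (adjusted p = 0.0742 and 0.0785). SLC25A4, which encodes ANT1, the isoform of heart and muscle, had 109, 113 and 116 CPM with erianin, against 60.9, 91.4 and 90.04 CPM with DMSO. Its groups did not overlap, but it was not called (0.48 ± 0.17, adjusted p = 0.0721), and SLC25A4 was higher when DMSO replicate 1 was left out (0.33 ± 0.07, adjusted p = 0.000132). SLC25A5, which encodes ANT2, the isoform of dividing cells, had 468, 453 and 461 CPM with erianin, against 377, 617 and 630.4 CPM with DMSO (-0.23 ± 0.19, adjusted p = 0.421). DMSO replicate 1 was the lowest library for SLC25A5, and without it SLC25A5 fell (-0.42 ± 0.06, adjusted p = 8.15e-07).

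In the ADP/ATP carrier pool, SLC25A4 held a larger and SLC25A6 a smaller share in every erianin library than in any DMSO library. SLC25A4 held 7, 7.5 and 7.2% of the TPM of the 3 isoforms in erianin replicates 1, 2 and 3, against 4, 4.2 and 4.2% in DMSO replicates 1, 2 and 3. SLC25A6 held 31.1, 31.1 and 33.9% with erianin, against 45, 36.7 and 36% with DMSO. SLC25A5 held the largest share in each library, at 58.9% to 61.8% with erianin and 51% to 59.9% with DMSO. For SLC25A5 the shares of erianin replicate 3 and DMSO replicates 2 and 3 lay side by side. SLC25A5 and SLC25A6 have many processed pseudogenes, to which reads can be split or lost; the 50 further SLC25A entries (pseudogenes and antisense RNAs) held at most 38 counts each. SLC25A5 shares 15.1% of its exonic bases with an antisense entry, SLC25A22 10.8% with PANO1 and SLC25A26 15.5% with LRIG1, all on the opposite strand.

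**Figure D3:**
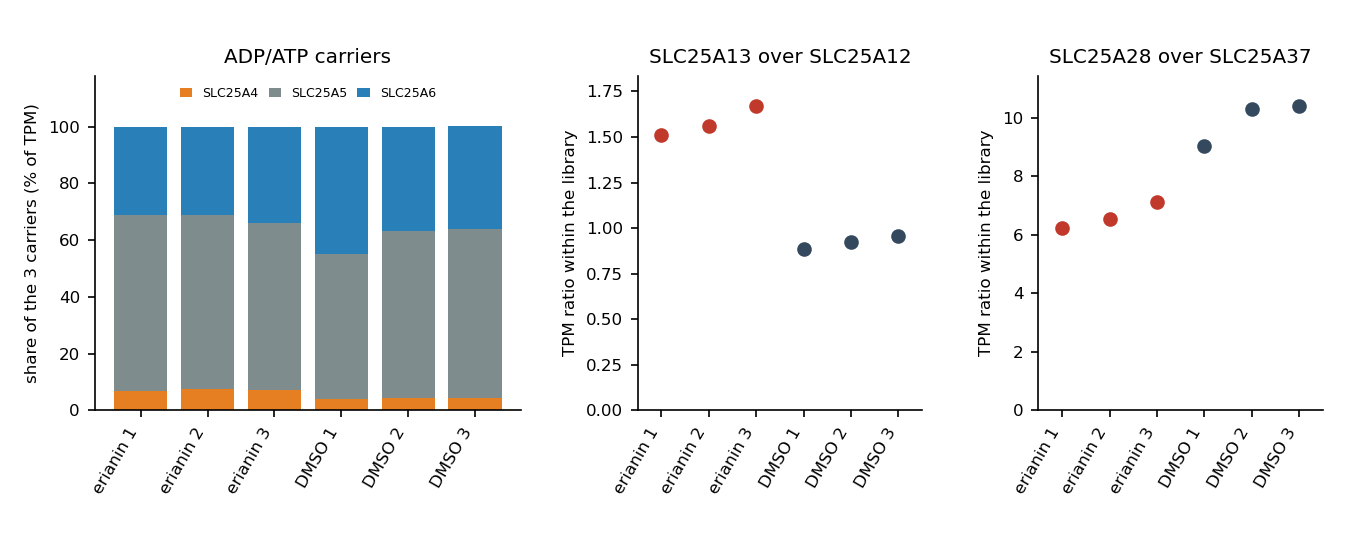
Left, share of SLC25A4, SLC25A5 and SLC25A6 in their summed TPM in each library (y axis, percent). Middle and right, TPM ratio of SLC25A13 to SLC25A12 and of SLC25A28 to SLC25A37 in each library (y axes from 0), with erianin in red and DMSO in dark blue. The SLC25A13 ratio is above 1.5 in all erianin libraries and below 1 in all DMSO libraries, and the SLC25A28 ratio is 6.22 to 7.11 with erianin and 9.03 to 10.4 with DMSO.

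Of the aspartate/glutamate carriers, SLC25A13 rose and SLC25A12 was not called. SLC25A12 (aralar) and SLC25A13 (citrin) are calcium-regulated paralogs that export aspartate for glutamate and drive the malate-aspartate shuttle, which carries reducing equivalents of cytosolic NADH into mitochondria. SLC25A13 (chromosome 7, 96120220 to 96322147, minus strand) had 41.6, 42.4 and 39.9 CPM in erianin replicates 1, 2 and 3, against 29.2, 31.0 and 31.3 CPM in DMSO replicates 1, 2 and 3 (0.44 ± 0.10, adjusted p = 0.0183). SLC25A12 (chromosome 2, 171784370 to 171999859, minus strand) had 34.1, 33.8 and 29.5 CPM with erianin, against 40.9, 41.5 and 40.3 CPM with DMSO (-0.33 ± 0.10, adjusted p = 0.0557). Neither gene's groups overlapped and DMSO replicate 1 was near its group in both. SLC25A12 was lower by DESeq2, with DESeq2 size factors in edgeR, with offsets for GC content and length (adjusted p = 0.0116) and without DMSO replicate 1 (-0.32 ± 0.08, adjusted p = 0.0018). In all, 5 of 18 alternatives called it. It was not called with upper-quartile scaling, total counts or the replicate block, or on leaving out any other library (adjusted p up to 0.168). The call of SLC25A13 was lost on leaving out any single library but DMSO replicate 1 (adjusted p up to 0.0969). Within a library, the TPM ratio of SLC25A13 to SLC25A12 was 1.51, 1.56 and 1.67 with erianin, against 0.884, 0.925 and 0.959 with DMSO. The order of the paralogs was opposite in the groups, and the difference between their changes was not tested.

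The upstream windows of these paralogs are shown for comparison, since their log2 fold changes had opposite signs. The RefSeq start of SLC25A12 and its whole window lie inside the longer GENCODE 29 gene, and the SLC25A13 window lies partly inside its own. The E-box (CACGTG), the CCAAT box and the GC box are in capitals on either strand.
SLC25A13 promoter, chr7:96322099-96322348, minus strand: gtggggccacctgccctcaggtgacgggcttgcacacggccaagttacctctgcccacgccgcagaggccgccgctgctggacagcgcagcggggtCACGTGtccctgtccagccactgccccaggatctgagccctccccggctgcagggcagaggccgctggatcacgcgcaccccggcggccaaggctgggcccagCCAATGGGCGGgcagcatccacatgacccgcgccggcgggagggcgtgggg
SLC25A12 promoter, chr2:171894245-171894494, minus strand: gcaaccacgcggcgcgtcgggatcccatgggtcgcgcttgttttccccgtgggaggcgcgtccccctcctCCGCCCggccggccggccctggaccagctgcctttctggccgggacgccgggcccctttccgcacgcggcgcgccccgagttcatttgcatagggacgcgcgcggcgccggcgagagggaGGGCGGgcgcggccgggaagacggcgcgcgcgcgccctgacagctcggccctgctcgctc
The SLC25A13 window held the E-box 1 time and a CCAAT box directly followed by a GC box, without overlap. The SLC25A12 window held the GC box 2 times, 1 of them on the other strand, and neither of the other motifs. The E-box was in 6.3% of the 34961 windows. No match says only that these letters are not in this window.

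Among the other amino acid carriers, SLC25A38 fell. SLC25A38 imports glycine, the substrate of the first step of heme synthesis, and had 51.3, 50.6 and 50.3 CPM in the erianin libraries, against 59.6, 72.7 and 75.5 CPM in the DMSO libraries (-0.45 ± 0.12, adjusted p = 0.0322). The erianin libraries lay within 1 CPM of each other and below every DMSO library. The call was lost on leaving out any single library but DMSO replicate 1 (adjusted p up to 0.137), and with upper-quartile scaling or total counts; without DMSO replicate 1 the change was -0.53 ± 0.07, adjusted p = 4.95e-07. SLC25A22, a carrier of glutamate with protons, had 87.1, 91.9 and 103 CPM with erianin, against 33.3, 63.7 and 67.8 CPM with DMSO. Its groups did not overlap, DMSO replicate 1 was the lowest library, and it was not called (0.77 ± 0.25, adjusted p = 0.0631). SLC25A22 was higher with the offsets (adjusted p = 0.00687), by DESeq2 and without DMSO replicate 1 (0.53 ± 0.07, adjusted p = 1.88e-06). SLC25A44, a carrier of branched-chain amino acids, rose without DMSO replicate 1 (0.41 ± 0.07, adjusted p = 2.59e-05), and SLC25A29, a carrier of basic amino acids, fell without it (-0.29 ± 0.07, adjusted p = 0.00191). With all libraries neither was called (adjusted p = 0.452 and 0.68). SLC25A15, the ornithine carrier, had 22.6 ± 0.199 CPM with erianin and 21.7 ± 6.04 CPM with DMSO (SD, n = 3 each). SLC25A18, another glutamate carrier, had 0.717 ± 0.1302 CPM with erianin and 0.553 ± 0.189 CPM with DMSO. Of the 8 amino acid carriers, 1 rose and 1 fell with all libraries, and 3 were higher and 3 lower without DMSO replicate 1. In these fits 24.2% and 55.3% of all genes were called.

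Carriers of cofactors held 2 called members of 8, both higher, against 11.8% higher and 12.3% lower of all genes. SLC25A32, which brings folate and FAD into mitochondria, had 29.9, 32.1 and 24.1 CPM in the erianin libraries, against 19.1, 19.2 and 19.03 CPM in the DMSO libraries (0.59 ± 0.13, adjusted p = 0.0193). The DMSO libraries were nearly equal, and erianin replicate 3 was the lowest of its group. SLC25A32 lost its call without erianin replicate 1 or 2 or DMSO replicate 2 or 3 (adjusted p up to 0.0945). In GENCODE 29, 69.7% of its exonic bases are shared with another protein-coding gene entry on the same strand, so its count is uncertain. SLC25A17, a peroxisomal rather than mitochondrial carrier of CoA, FAD and NAD, had 47.05, 39.6 and 40.5 CPM with erianin, against 21.8, 32.8 and 31.03 CPM with DMSO (0.57 ± 0.17, adjusted p = 0.0489). SLC25A17 stood at the threshold, and its call was lost on leaving out any single library but DMSO replicate 1 (adjusted p up to 0.167), with the offsets (adjusted p = 0.103) and with DESeq2 size factors. Without DMSO replicate 1 the change was 0.42 ± 0.09, adjusted p = 0.000174.

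None of the other cofactor carriers described here was called with all libraries. SLC25A20, which exchanges acylcarnitines for carnitine in fatty acid oxidation, had 33.9, 32.9 and 32.6 CPM with erianin, against 23.7, 36.5 and 38.9 CPM with DMSO (0.00 ± 0.18, adjusted p = 0.995). Its erianin libraries were above DMSO replicate 1 and below DMSO replicates 2 and 3, and leaving out DMSO replicate 1 gave no call (adjusted p = 0.06). SLC25A51, the mitochondrial NAD carrier, had 6.42, 6.24 and 6.34 CPM with erianin, against 5.85, 5.39 and 4.56 CPM with DMSO (0.27 ± 0.15, adjusted p = 0.223); its groups did not overlap, and it was higher without DMSO replicate 1 (0.36 ± 0.15, adjusted p = 0.0405). SLC25A42, a CoA carrier, and SLC25A26, the S-adenosylmethionine carrier, were lower without DMSO replicate 1 (-0.56 ± 0.08, adjusted p = 1.51e-06 and -0.32 ± 0.09, adjusted p = 0.00233). With all libraries their adjusted p-values were 0.313 and 0.634. SLC25A16 had 10.7 ± 2.06 CPM with erianin and 9.14 ± 0.863 CPM with DMSO (SD, n = 3 each; adjusted p = 0.363).

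Both pyrimidine nucleotide carriers had positive log2 fold changes, and SLC25A33 rose. SLC25A33 and SLC25A36 bring pyrimidine nucleotides to the matrix for mitochondrial DNA and RNA synthesis. SLC25A33 had 31.8, 30.9 and 34.4 CPM in the erianin libraries, against 13.6, 21.7 and 22.6 CPM in the DMSO libraries (0.75 ± 0.20, adjusted p = 0.0311). DMSO replicate 1 was the lowest library, and without it the change was 0.56 ± 0.09, adjusted p = 4.56e-06. The call was lost without any 1 erianin library (adjusted p up to 0.114) and with the offsets (adjusted p = 0.0583). SLC25A36 had 73.5, 75.5 and 64.1 CPM with erianin, against 69.7, 51.96 and 59.4 CPM with DMSO (0.23 ± 0.14, adjusted p = 0.255). Here DMSO replicate 1 lay among the erianin libraries, and without it SLC25A36 was higher (0.36 ± 0.08, adjusted p = 0.000487).

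No carrier of citrate, dicarboxylates or oxoglutarate was called, and DMSO replicate 1 was the lowest library for all 3. SLC25A1, which exports citrate for fatty acid and sterol synthesis, had 53.1, 52.8 and 64.5 CPM in the erianin libraries, against 30.4, 75.01 and 75.3 CPM in the DMSO libraries (-0.09 ± 0.32, adjusted p = 0.872). SLC25A11, the oxoglutarate carrier and partner of the aspartate/glutamate carriers in the malate-aspartate shuttle, had 110.0, 111 and 125 CPM with erianin, against 90.4, 193 and 203 CPM with DMSO (-0.49 ± 0.28, adjusted p = 0.242). The erianin libraries of both genes were above DMSO replicate 1 and below the rest of the DMSO libraries. By edgeR 0 of these 3 carriers had an unadjusted p under 0.05, and DESeq2 and limma-voom called 0. Without DMSO replicate 1 all 3 were lower: SLC25A11 (-0.77 ± 0.07, adjusted p = 4.07e-10), SLC25A1 (-0.39 ± 0.08, adjusted p = 0.000206) and the dicarboxylate carrier SLC25A10 (-0.61 ± 0.12, adjusted p = 0.000145). In that fit 55.3% of all genes were called and 27.4% were lower, against 24.2% and 12.3% with all libraries. SLC25A11 was also lower with the offsets (adjusted p = 0.0467). It shares 9.1% of its exonic bases with RNF167 on the opposite strand. The identifier listed for SLC25A10 is in GENCODE 29 an entry apart from that named SLC25A10. It shares 63.5% of its exonic bases with the SLC25A10 entry and 36.5% with MRPL12, both on the same strand. Its count may hold reads of MRPL12 and is an uncertain measure of SLC25A10.

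The phosphate carriers held 1 called member of 5, SLC25A41, where 24.2% of all genes were called. SLC25A41 belongs to the carriers that exchange ATP-magnesium for phosphate and lacks the calcium-binding part of its relatives. It was low, at 0.792, 0.636 and 0.943 CPM in erianin replicates 1, 2 and 3, against 0.164, 0.185 and 0.324 CPM in DMSO replicates 1, 2 and 3 (1.79 ± 0.36, adjusted p = 0.0133). These levels came from 29, 22 and 33 counts with erianin and 5, 6 and 11 counts with DMSO, all above the floor, and the 1 CPM filter removed the gene. The call was lost without erianin replicate 1 or 3 (adjusted p = 0.061 and 0.0583). SLC25A3, which imports the phosphate used for ATP synthesis, had 617, 626 and 630.5 CPM with erianin, against 469, 684 and 709 CPM with DMSO (0.01 ± 0.16, adjusted p = 0.973). Without DMSO replicate 1, the lowest library, SLC25A3 was lower by a small amount (-0.14 ± 0.06, adjusted p = 0.0374). SLC25A23, SLC25A24 and SLC25A25, the calcium-regulated ATP-magnesium carriers, had log2 fold changes of -0.21 ± 0.16, 0.05 ± 0.16 and 0.03 ± 0.21 and were not called; without DMSO replicate 1 SLC25A25 was lower (-0.18 ± 0.07, adjusted p = 0.0362).

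SLC25A30 rose and its relative SLC25A14 was not called. Both resemble uncoupling proteins, inner-membrane carriers of which UCP1 dissipates the proton gradient as heat. SLC25A30 had 11.3, 12.2 and 10.3 CPM in the erianin libraries, against 6.997, 7.58 and 6.88 CPM in the DMSO libraries (0.66 ± 0.13, adjusted p = 0.0118). All erianin libraries lay above all DMSO libraries, and DMSO replicate 1 was close to its group (0.66 ± 0.12, adjusted p = 7.70e-05 without it). The call was lost without erianin replicate 1 or 2 (adjusted p = 0.0629 and 0.07). SLC25A14 had 10.2 ± 1.701 CPM with erianin and 10.2 ± 0.443 CPM with DMSO (SD, n = 3 each; adjusted p = 0.998).

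In the remaining group, which holds the outer-membrane protein SLC25A46 and carriers without a substrate assigned here, SLC25A43 rose. SLC25A43 had 5.33, 6.15 and 4.69 CPM in the erianin libraries, against 3.22, 2.22 and 2.94 CPM in the DMSO libraries (0.95 ± 0.20, adjusted p = 0.0152). The groups did not overlap, and the call was lost without erianin replicate 1 or 2 (adjusted p = 0.0654 and 0.0768). SLC25A46, which acts in mitochondrial shape, had 50.8 ± 1.58 CPM with erianin and 42.2 ± 1.02 CPM with DMSO (SD, n = 3 each). It was not called (0.27 ± 0.09, adjusted p = 0.0777) and was higher without DMSO replicate 1 (0.29 ± 0.07, adjusted p = 0.0021), with upper-quartile scaling or total counts and by DESeq2. SLC25A53 was higher and SLC25A45 lower without DMSO replicate 1 (0.85 ± 0.16, adjusted p = 5.17e-05 and -0.33 ± 0.12, adjusted p = 0.0272). SLC25A34 and SLC25A35 were called in neither fit. SLC25A35 shares 33.2% of its exonic bases with RANGRF on the opposite strand, and reads of the pair cannot be told apart where strand was not used.

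Levels were compared between carriers by TPM within each library, since the TPM columns do not share a scale between libraries. The 4 most abundant carriers held 66% to 66.5% of the summed carrier TPM in the erianin libraries and 70.1% to 72% in the DMSO libraries. SLC25A5 was first and SLC25A6 second in the group means, with 36.7 ± 0.958% and 19.4 ± 1.01% of the carrier TPM with erianin and 36.0 ± 3.41% and 24.9 ± 2.96% with DMSO (SD, n = 3 each). With erianin SLC25A3 was next at 5.83 ± 0.133%, then SLC25A4 at 4.36 ± 0.112% and SLC25A11 at 4.35 ± 0.209%, which did not differ beyond their spread. With DMSO the same places were held by SLC25A11 at 5.04 ± 1.203%, SLC25A3 at 4.88 ± 0.175% and SLC25A28 at 4.199 ± 0.674%, whose spreads overlapped, and SLC25A4 followed at 2.63 ± 0.105%. The ADP/ATP carriers together made up 60.4 ± 0.36% of the carrier TPM with erianin and 63.6 ± 0.6% with DMSO, and the pyrimidine nucleotide carriers 2.86 ± 0.04% and 1.65 ± 0.15%. The iron and glutathione carriers held 6.77 ± 0.1% with erianin and 8.15 ± 1.18% with DMSO. The length behind the deposited TPM was 8.53 times that of SLC25A5 for SLC25A3 and 2.57 times for SLC25A6, and 4.78 and 1.62 times by the longest transcript, so these places depend on the gene model. Divided by the longest transcript relative to that of SLC25A5, mean CPM was 387.1 for SLC25A6 and 460.8 for SLC25A5 with erianin, and 579.9 for SLC25A6 and 541.5 for SLC25A5 with DMSO, where SLC25A6 then came first.

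Of 4 tested family members known under other symbols, 2 rose and 1 fell. These and the lists below are genes that work beside the carriers, and the counts are from the same edgeR fit. In it 11.8% of all genes were higher and 12.3% lower, and without DMSO replicate 1 27.8% and 27.4%. These shares are the background for each list. By limma-trend on log2(TPM + 1), the called genes named below that kept their calls were UCP3, TIMM17A, ASNS, GLDC, IDH1, TFRC, PANK3 and SFXN1. UCP2, an uncoupling protein that carries metabolites out of the matrix, fell to 151, 165 and 178 CPM in erianin replicates 1, 2 and 3, against 336, 378 and 404 CPM in DMSO replicates 1, 2 and 3 (-1.18 ± 0.12, adjusted p = 0.0016). UCP3, a low-level relative, had 2.704, 3.06 and 3.54 CPM with erianin, against 1.28, 1.29 and 1.5 CPM with DMSO and rose (1.19 ± 0.19, adjusted p = 0.00665). MTCH2, an outer-membrane protein that inserts tail-anchored proteins, had 111, 116 and 116 CPM with erianin, against 44.7, 67.1 and 68.3 CPM with DMSO and rose (0.93 ± 0.17, adjusted p = 0.01; adjusted p up to 0.0529 without erianin replicate 2 or 3). The groups did not overlap in any of these genes. MTCH1 was not called, and it was lower when DMSO replicate 1 was left out (-0.18 ± 0.06, adjusted p = 0.013). The genes named here and in the next paragraphs as having risen or fallen were called in the same direction in that fit.

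Carriers enter the inner membrane through the TIM22 complex, fed by small TIM chaperones. Of 15 import genes tested, 2 rose and 3 fell, against 11.8% higher and 12.3% lower of all genes. TIMM22, the core of the insertase, had 34.9, 32.1 and 36.6 CPM with erianin, against 43.4, 50.8 and 48.98 CPM with DMSO (-0.47 ± 0.11, adjusted p = 0.0233). TIMM10, a small chaperone that escorts carriers across the space between the membranes, had 47.6, 49.2 and 54.1 CPM with erianin, against 72.5, 81.9 and 72.8 CPM with DMSO (-0.59 ± 0.11, adjusted p = 0.00976). Both fell, with no overlap between groups. The calls of TIMM22 and TIMM10 ended without erianin replicate 1 or 2 (adjusted p up to 0.129 and 0.0717), and that of TIMM22 also without erianin replicate 3 or DMSO replicate 2 or 3 and with upper-quartile scaling. TOMM70, an outer-membrane receptor for carriers, fell as well (-0.45 ± 0.12, adjusted p = 0.0329; up to 0.12 on leaving out any single library but DMSO replicate 1) and was not called with upper-quartile scaling or total counts. TIMM17A and TIMM23 stand in the same list but are subunits of the other translocase, that for matrix proteins, and they rose (0.89 ± 0.15, adjusted p = 0.00713, and 0.54 ± 0.10, adjusted p = 0.0104; TIMM23 was not called without erianin replicate 1 or 2, adjusted p up to 0.0674). Among the 15 import genes with a test, the median log2 fold change was -0.06. Without DMSO replicate 1, 3 were higher and 5 lower, against 27.8% and 27.4% of all genes. In that fit the small chaperone TIMM8B was higher (0.36 ± 0.08, adjusted p = 0.000524). The small chaperones TIMM10 (-0.607 ± 0.077, adjusted p = 2.92e-07) and TIMM13 (-0.312 ± 0.065, adjusted p = 0.00023) were lower in it.

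Genes of the metabolic steps on either side of the carriers were also read. Of 14 tested genes of one-carbon, serine and glycine metabolism and related enzymes, 1 rose and 5 fell (median -0.03), and 4 were higher and 7 lower without DMSO replicate 1. The shares of all genes called were 24.2% and, without DMSO replicate 1, 55.3%. Folate one-carbon metabolism uses the folate brought in by SLC25A32. MTHFD2, a mitochondrial folate enzyme, had 195, 193 and 174 CPM with erianin, against 317, 319 and 312 CPM with DMSO (-0.75 ± 0.10, adjusted p = 0.00331). MTHFD1, its cytosolic counterpart, fell as well (-0.65 ± 0.09, adjusted p = 0.00383), and so did SHMT2, the mitochondrial serine hydroxymethyltransferase (-0.63 ± 0.13, adjusted p = 0.0159). MTHFD2 and MTHFD1 were called whichever library was left out, while SHMT2 was not called without any 1 erianin library or DMSO replicate 2 (adjusted p up to 0.0893). ASNS, asparagine synthetase, which stands in this list but is no folate enzyme, fell to 6.88, 6.18 and 5.63 CPM with erianin, against 25.9, 14.02 and 13.8 CPM with DMSO (-1.52 ± 0.27, adjusted p = 0.00855; up to 0.0531 without erianin replicate 2 or 3). GLDC, which cleaves glycine in mitochondria, was low and rose (1.55 ± 0.22, adjusted p = 0.00454). SLC25A32, whose count is uncertain and whose call was lost in several fits, had a higher level with erianin. MTHFD2, MTHFD1 and SHMT2 had lower ones, and SHMT1 fell too (-0.61 ± 0.11, adjusted p = 0.0104, up to 0.071 without erianin replicate 1 or 2). The folate genes MTHFD1L and MTHFD2L were not called (-0.15 ± 0.11 and 0.195 ± 0.18, adjusted p = 0.375 and 0.47). Without DMSO replicate 1 MTHFD1L was lower and MTHFD2L higher (adjusted p = 0.0014 and 0.0173). ALDH1L2 was low and not called (0.64 ± 0.53, adjusted p = 0.427).

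Among enzymes of citrate export and the malate-aspartate shuttle, 2 of 11 tested rose and 2 fell (median -0.32), and 2 were higher and 6 lower without DMSO replicate 1. In these fits 24.2% and 55.3% of all genes were called. IDH1, the cytosolic isocitrate dehydrogenase, had 40.8, 42.6 and 39.4 CPM with erianin, against 15.7, 16.6 and 16.1 CPM with DMSO (1.34 ± 0.10, adjusted p = 0.000769). IDH2, its mitochondrial counterpart, had 209, 206 and 234 CPM with erianin, against 282, 368 and 365 CPM with DMSO (-0.65 ± 0.13, adjusted p = 0.0142). IDH1 rose and IDH2 fell, without overlap between groups; the call of IDH2 was lost without erianin replicate 1 or 2 (adjusted p up to 0.0838). GOT1, the cytosolic aspartate aminotransferase of the shuttle, fell (-0.55 ± 0.12, adjusted p = 0.0162; up to 0.0988 without erianin replicate 1 or 2 or DMSO replicate 2), while its mitochondrial counterpart GOT2 was not called (-0.07 ± 0.10, adjusted p = 0.666). ACLY, which splits the citrate exported by SLC25A1, rose (0.47 ± 0.13, adjusted p = 0.04) and was not called on leaving out any single library but DMSO replicate 1 (up to 0.13).

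Iron uptake and CoA genes were read next. TFRC, the transferrin receptor through which cells take up iron, had 382, 388 and 347 CPM with erianin, against 133, 136 and 144 CPM with DMSO (1.43 ± 0.10, adjusted p = 0.000508). It was called whichever library was left out (adjusted p up to 0.00964). GLRX5, a glutaredoxin of iron-sulfur cluster assembly, rose (0.66 ± 0.17, adjusted p = 0.0285; up to 0.107 without any 1 erianin library), and CPOX, a heme synthesis enzyme, was not called (adjusted p = 0.121). The iron-sulfur and heme list holds TFRC as a gene of iron uptake. Of its 15 genes tested, 2 (TFRC and GLRX5) rose and 0 fell by edgeR, where 24.2% of all genes were called. At an unadjusted p under 0.05 by edgeR, 3 were higher and 1 lower, against 2192 and 2244 of all 11550 genes. By DESeq2 2 were higher and 0 lower, where 31.5% of all genes were called. Without DMSO replicate 1, 3 were higher and 2 lower, and with the offsets 2 were higher and 1 lower. In these fits 55.3% and 36.7% of all genes were called. Of 11 carnitine and CoA genes tested, 1 rose and 1 fell, and 2 were higher and 4 lower without DMSO replicate 1. The shares of all genes called were again 24.2% and 55.3%. PANK3, a pantothenate kinase that starts CoA synthesis, rose (0.56 ± 0.11, adjusted p = 0.0128; up to 0.073 without erianin replicate 1 or 2), and ACACB, an acetyl-CoA carboxylase, fell (-0.79 ± 0.12, adjusted p = 0.00612). CPT1A, which makes the acylcarnitine carried by SLC25A20, was low and not called (1.25 ± 0.54, adjusted p = 0.132).

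Among other mitochondrial channels and transporters, SFXN1 and VDAC3 rose, and the median log2 fold change of the 19 tested was -0.14. Without DMSO replicate 1, 3 were higher and 10 lower, against 27.8% and 27.4% of all genes. SFXN1, a mitochondrial serine transporter outside the SLC25 family, rose to 56.9, 57.2 and 52.2 CPM with erianin, against 36.9, 36.3 and 35.7 CPM with DMSO (0.61 ± 0.10, adjusted p = 0.00623). The outer-membrane channel VDAC3 rose (0.43 ± 0.12, adjusted p = 0.0407). VDAC3 was not called on leaving out any single library but DMSO replicate 1 (adjusted p up to 0.163) or without a filter. VDAC1, the pyruvate carrier subunits MPC1 and MPC2, and the calcium uniporter MCU were not called (adjusted p = 0.105, 0.367, 0.125 and 0.634).

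**Figure D4:**
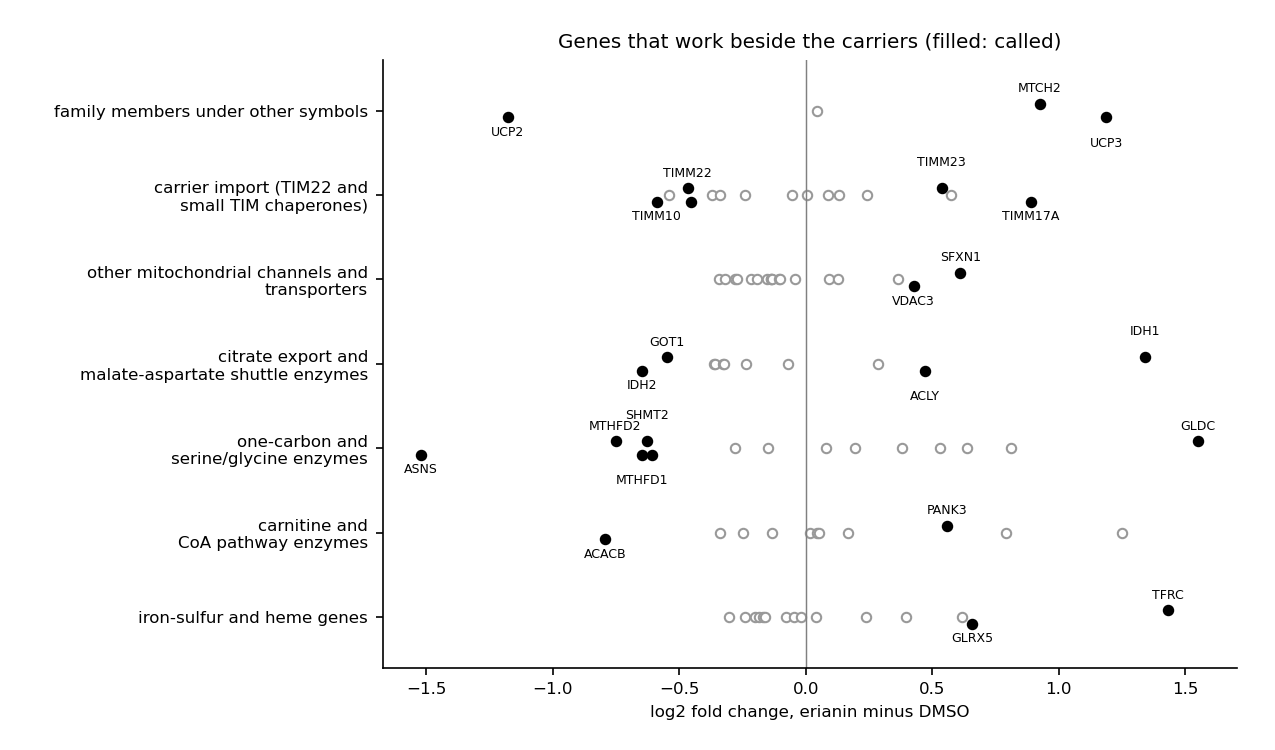
Log2 fold change (erianin minus DMSO, x axis) of the tested genes reported here from the 7 lists of genes that work beside the carriers (rows), filled where the adjusted p was under 0.05. Filled points carry their symbols, and those without one are TOMM70 and SHMT1, both lower. TFRC, IDH1 and GLDC lie above 1.3, and ASNS and UCP2 below -1.1.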

How the data were processed

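The authors deposited raw read counts per gene and TPM (transcript abundance scaled to length) for 6 SU-DHL-8 libraries. Per the submitters' processing notes, the tools were StringTie 2.2.1, featureCounts 2.0.1, STAR 2.7.10 and fastp 0.23.2, and the build was GRCh38/hg38. Not given in the sources used here are the annotation, the strand setting and how multi-mapping reads were treated. The deposited count table had 65807 rows, of which 61 repeated a symbol and were left out. Groups came from the sample labels.

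Counts were tested in edgeR 4.0.16 (R 4.3.3) by its quasi-likelihood test, after the filterByExpr filter and TMM scaling, with Benjamini-Hochberg adjustment over 11550 genes and a threshold of 0.05. Standard errors were obtained by dividing the log2 fold change by the root of the F statistic. TMM factors enter the CPM levels. Deposited TPM was compared within a library, except in 2 alternatives with pseudocounts of 1 and 0.1. In all, 18 alternatives were run, among them DESeq2 1.42.0, limma 3.58.1 and offsets for GC content and length (mgcv 1.9.3, 98.7% of genes). The edgeR step was tested on simulated counts. Library totals are in the report; floors cover counting error alone.

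Values in every library are given for each called carrier and for carriers fixed by name; partner genes named are the 3 of smallest p of a list and some fixed by name. SLC25A22, SLC25A44, SLC25A29, SLC25A42, SLC25A26, SLC25A25, SLC25A46, SLC25A53, SLC25A45, TOMM70, TIMM8B, TIMM13, MTCH1, SHMT1, MTHFD1L, MTHFD2L and ALDH1L2 were named after their values were seen. The members and lists were chosen with earlier results of these data known. A carrier and a gene of the channel list entered the fits and counts but are not reported here.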

Additional observations from a re-analysis of the deposited data

How the results depend on the processing

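With all libraries 7 carriers were higher and 4 lower. The other scalings, filters, DESeq2, limma-voom and the offsets gave 6 to 10 higher, where 14.5% to 36.7% of all genes were called in either direction. Lower carriers numbered 2 with total counts, 7 with GC content and length offsets and 0 by limma-trend on log2(TPM + 1) or log2(TPM + 0.1), where 1 had an unadjusted p under 0.05. By limma-trend few of all 11550 genes were lower, at 262 and 245, against 1408 and 1263 higher. Leaving out 1 library in turn gave 0 to 14 higher and 1 to 16 lower, while 6.36% to 55.3% of all genes were called. The 0 was edgeR without erianin replicate 1, where 10 were higher at an unadjusted p under 0.05. With the offsets and without DMSO replicate 1 there were 12 higher and 19 lower, where 61.5% of all genes were called. The cause of these differences was not tested. Deviations from the group mean had correlations of 0.17, -0.14 and 0.23 between samples of the same replicate number. DMSO replicate 1 lay apart from its group, so these values cannot show whether the numbers pair the samples. With the replicate block 6 carriers were higher and 3 lower, where 19.9% of all genes were called.

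The 11 called carriers kept their sign in every alternative. Of the carriers reported here, some not called in the fit of all libraries turned sign as follows. On log2(TPM + 1) and log2(TPM + 0.1) the log2 fold changes were 0.285 and 0.298 for SLC25A1, 0.078 and 0.078 for SLC25A5, 0.105 and 0.183 for SLC25A10, 0.080 and 0.083 for SLC25A23, 0.142 and 0.164 for SLC25A26, 0.164 and 0.175 for SLC25A29, 0.116 and 0.142 for SLC25A35, 0.196 and 0.215 for SLC25A37, 0.062 and 0.066 for SLC25A39, and 0.022 and 0.064 for SLC25A45. With total counts they were 0.032 for SLC25A1 and 0.054 for SLC25A37, and with upper-quartile scaling 0.031 for SLC25A37. With limma-voom SLC25A1 was at 0.023 and SLC25A14 at -0.013, and with the replicate block at 0.018 and -0.011. With DESeq2 size factors and by DESeq2 SLC25A14 was at -0.005 and SLC25A20 at -0.004, and without a filter SLC25A14 at -0.001. With the offsets the values were -0.025 for SLC25A3, -0.089 for SLC25A14, -0.016 for SLC25A15, -0.059 for SLC25A20 and -0.007 for SLC25A25. With the offsets and without DMSO replicate 1 they were -0.265 for SLC25A3, -0.14 for SLC25A14, -0.216 for SLC25A15, -0.233 for SLC25A20, -0.003 for SLC25A24, -0.198 for SLC25A25 and 0.21 for SLC25A35.

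Leaving out 1 library turned the sign of SLC25A1 (range -0.392 to 0.104), SLC25A3 (range -0.144 to 0.112), SLC25A10 (range -0.613 to 0.040), SLC25A14 (range -0.078 to 0.132), SLC25A15 (range -0.142 to 0.190), SLC25A20 (range -0.175 to 0.132), SLC25A24 (range -0.058 to 0.188), SLC25A25 (range -0.185 to 0.154), SLC25A26 (range -0.323 to 0.009) and SLC25A35 (range -0.373 to 0.208). The cause of these sign changes was not tested. Depth limits the low carriers SLC25A41, SLC25A18 and SLC25A34, whose levels stayed under 1 CPM.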

Other observations

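Family symbols outside the rule had little or no signal. SLC25A27, SLC25A21 and SLC25A48 were listed at 0 in all libraries, and SLC25A2, SLC25A31, SLC25A47 and SLC25A52 had totals of 9, 4, 7 and 16 counts over the 6 libraries. Of 50 pseudogene and antisense entries with an SLC25A symbol, 5 had a count. SLC25A1P5, a pseudogene of the citrate carrier, had 8, 9 and 9 counts in erianin replicates 1, 2 and 3, against 0, 6 and 6 counts in DMSO replicates 1, 2 and 3.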
